A study of Mus musculus with 6 samples.

Results

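Amino acid transporter genes were compared between pancreatic islets of non-pregnant mice (0 days post coitum, dpc) and islets of mice at 12.5 dpc of pregnancy, with 3 arrays in each group. The islets were freed with collagenase. They are the clusters of hormone-secreting cells within the exocrine pancreas, and the study asked which factors make them proliferate in pregnancy. The members were all probe sets of the array with a single gene symbol of the Slc1a, Slc3a, Slc7a, Slc36a, Slc38a or Slc43a series: 86 of 45101 probe sets, for 40 of 18194 genes. The labels give no strain, age, genotype or treatment other than pregnancy and leave unsaid whether each array had its own animals. P-values therefore cover the spread between these 6 samples alone, and that spread could be technical.

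Amino acids cross cell membranes through carriers of a few structural families. The Slc1 family holds glutamate carriers and exchangers of alanine, serine and cysteine, and the Slc7 family holds carriers of arginine and lysine as well as light chains that work only when joined to a heavy chain from the Slc3 family. Some Slc36 carriers are driven by protons. The Slc38 carriers move glutamine, alanine and other small neutral amino acids. The Slc43 family includes carriers of leucine and other large neutral amino acids. In islets, amino acids feed protein synthesis, and arginine, leucine and alanine also stimulate hormone release, while tryptophan is the substrate of serotonin synthesis.

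Each array gave a MAS5 signal per probe set, a background-corrected intensity on a linear scale. All 6 arrays had the same 2% trimmed mean of 500.003 and medians between 86.1 and 100.3. Signals of control probe sets for a bacterial transcript ran from 1.1 to 32.3. Probe sets differ in how strongly they hybridise, so signals were compared between arrays for the same probe set and not between genes. Log2 differences are pregnant minus non-pregnant on the scale of log2(signal + 16), which understates changes of dim probe sets. Each gene is given by its brightest probe set and was called at a Benjamini-Hochberg adjusted p under 0.05 in limma, fitted over all probe sets tested. The number of arrays limits the precision.

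In the pregnant islets Slc38a10 rose, and Slc38a4, Slc7a2, Slc43a3, Slc38a6 and Slc38a5 fell. All 6 changes were smaller than 2-fold. In RNA of whole islets, fewer cells of a type and less RNA per cell cannot be told apart. The tested large neutral amino acid carriers among the members, including those known to take up tryptophan, were not called by their brightest probe sets. The tryptophan hydroxylases Tph1 and Tph2 rose steeply in the same islets. Of the 40 member genes, 28 had a probe set bright enough to be tested, and 22 of these were not called. The 1 gene that rose is 3.57% of those tested, where 6.1% of all 12914 tested genes rose. The 5 that fell are 17.9%, where 5.79% of all tested genes fell. By probe set, 3 of 52 tested were higher, a share of 5.77% against 4.79% of all, and 9 were lower, a share of 17.3% against 4.78% of all. The median log2 difference of the 28 genes was -0.10, with quartiles of -0.31 and 0.03, and that of all tested genes was -0.04, with quartiles of -0.20 and 0.12.

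Rises and falls were balanced differently after another scaling. When arrays were centred on their medians, 2 members rose and 2 fell, while 872 of all genes rose and 329 fell instead of 788 and 748. Leaving out 1 array at a time left 2 to 4 members lower, and the matching counts over all genes are not given. Groups that did not overlap were found in 11 of the 28 genes. The pregnant arrays lay above the others in 3 (10.7%, against 13.9% of all genes) and below in 8 (28.6%, against 17.9% of all genes).

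**Figure D1:**
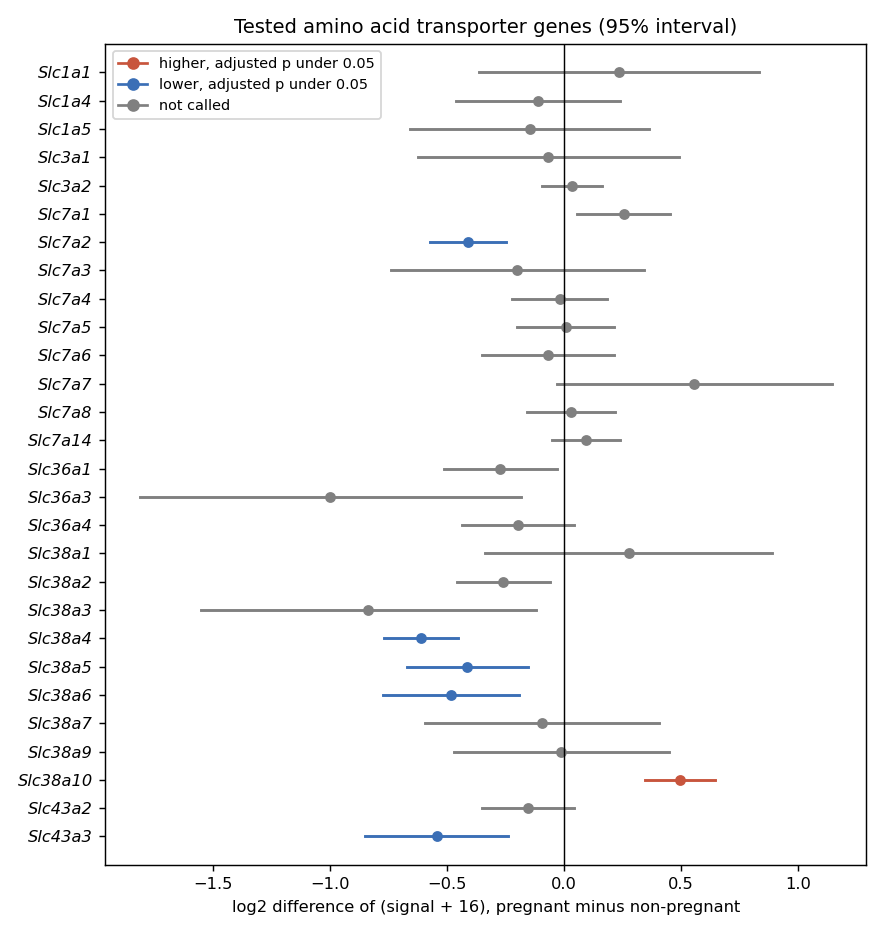
Log2 difference of signal + 16, pregnant minus non-pregnant (x axis), for the 28 tested amino acid transporter genes (y axis, by family), with 95% intervals from limma over 3 arrays per group. Slc38a10 is the 1 gene called higher, at 0.49, and the 5 called lower lie between -0.61 and -0.41.

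Among the Slc38 carriers all 9 members could be tested: 1 rose (11.1%, against 6.1% of all genes), 3 fell (33.3%, against 5.79%) and 5 were not called. Slc38a10, a neutral amino acid carrier of this family, had signals of 10255, 9361 and 8504 in non-pregnant and 13368, 12620 and 13526 in pregnant islets. The pregnant arrays were all higher than the non-pregnant ones. The mean went from 9374 ± 876 (SD, n = 3) to 13171 ± 484 (n = 3), which is 1.41 times as high. On the log2 scale the difference was 0.49 ± 0.07 (SE; adjusted p = 7.8e-04 in limma). Another 2 of its 6 tested probe sets were called higher, at 0.53 ± 0.07 and 0.37 ± 0.09, and the 3 dimmest were not called (0.13, 0.29 and 1.07). The rise was called with any 1 array left out, but not without the trend of variance on signal (adjusted p = 0.068).

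Slc38a4, a sodium-coupled carrier of alanine and other small neutral amino acids of the kind called system A, showed the lowest p of the members. Its signals were 5919, 5721 and 4988 in non-pregnant and 3657, 3682 and 3505 in pregnant islets. The groups were well separated, and the pregnant arrays lay close together. The mean fell from 5543 ± 490 to 3615 ± 96.3, to 0.652 of its level. The log2 difference was -0.61 ± 0.07 (limma adjusted p = 2.3e-04). It was called lower under all 17 alternative settings. Its second, dimmer probe set had -0.27 ± 0.09 and was not called (adjusted p = 0.079).

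Slc38a5, a glutamine and serine carrier of the kind called system N that is known from glucagon-secreting alpha cells, had 1080, 1083 and 1141 in non-pregnant and 1008, 775.2 and 712.7 in pregnant islets. Pregnant replicate 1 lay nearer to the non-pregnant arrays than to the other two of its group. The log2 difference was -0.41 ± 0.12, with an adjusted p of 0.048 in limma. It was not called in 12 of 17 alternatives, and the adjusted p was 0.010 without pregnant replicate 1 and 0.088 to 0.16 without any other array. Slc38a6, a less studied member of the family, had 774.7, 951.1 and 731.3 in non-pregnant and 529.9, 528.0 and 689.3 in pregnant islets. The highest pregnant value was just below the lowest non-pregnant one. Its log2 difference was -0.48 ± 0.13 (limma adjusted p = 0.040), and the adjusted p was 0.064 without non-pregnant replicate 1, 0.14 without non-pregnant replicate 2, and 0.15 or 0.14 without replicate 1 or 2 of the pregnant group.

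The other system A carriers, Slc38a1 and Slc38a2, were not called. Slc38a2, which amino acid shortage is known to induce, had 4109, 4500 and 3427 in non-pregnant and 3230, 3527 and 3232 in pregnant islets, so that the groups overlapped slightly. Its log2 difference was -0.26 ± 0.09 with a 95% interval of -0.46 to -0.06 (limma adjusted p = 0.10), and 0.013 without non-pregnant replicate 3. Dimmer probe sets of Slc38a2 had -0.09 ± 0.20 and -0.37 ± 0.16, the latter with the pregnant arrays below without overlap, and neither was called. Slc38a1 was dim and had 0.28 ± 0.28. Slc38a3, a glutamine carrier of system N, had 90.8, 88.8 and 118.5 in non-pregnant and 59.8, 25.3 and 68.5 in pregnant islets. These did not overlap, but with -0.84 ± 0.33 the gene did not pass (limma adjusted p = 0.15). Slc38a7, a glutamine carrier (-0.09 ± 0.23), and Slc38a9, the lysosomal arginine sensor upstream of the growth kinase complex mTORC1 (-0.01 ± 0.21), gave intervals of -0.60 to 0.41 and -0.47 to 0.45. Slc38a9 had 6 tested probe sets, all dim and not called. The others ranged from -0.73 ± 0.38 to 0.13 ± 0.31, and the probe set at -0.60 ± 0.29 had groups that did not overlap.

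**Figure D2:**
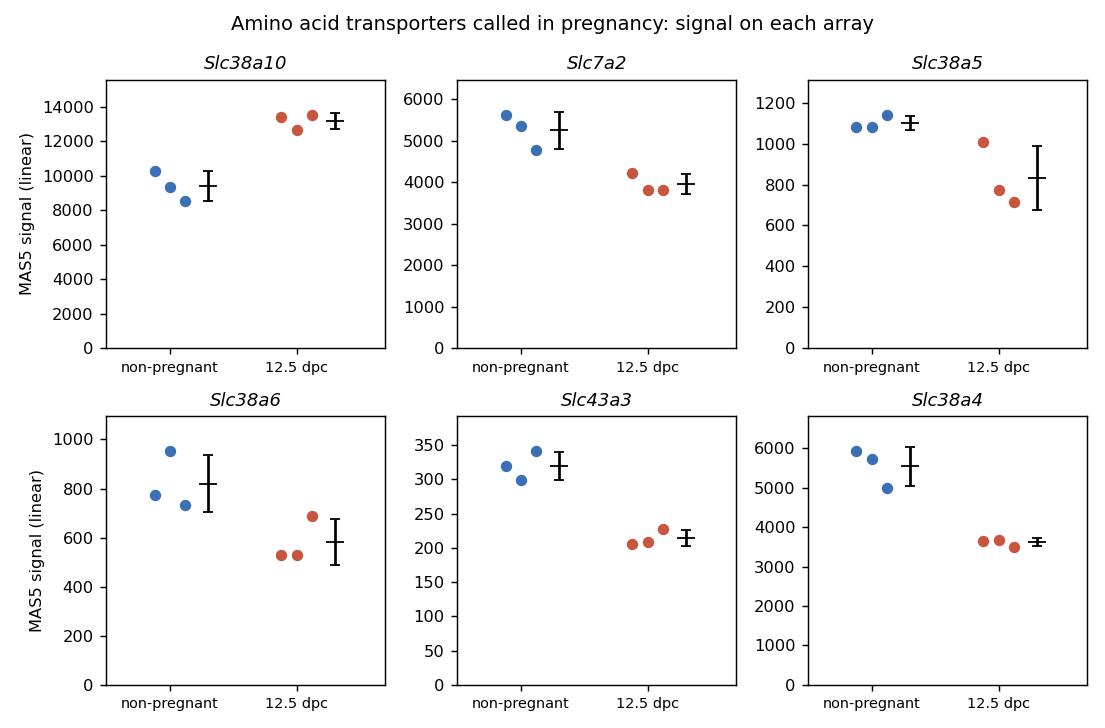
MAS5 signal on a linear axis from 0 (y axis) in non-pregnant and 12.5 dpc islets for the 6 called amino acid transporter genes. Points are arrays, and black marks are the mean ± SD of 3. In each panel the groups do not overlap: Slc38a10 goes from a mean of 9374 to 13171, and the other 5 lie lower in pregnancy.

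RefSeq start sites with sequence were found for 29 of the 40 members. The 250 bases before the start are shown for the riser Slc38a10 and for the fallers Slc38a4 and Slc38a5, since these members of 1 family moved in opposite directions (GRCm38.p6; minus strand at chr11:120151352-120151601, minus strand at chr15:97055957-97056206 and plus strand at chrX:8271131-8271380). Capitals would mark a match to TTCNNNGAA, the form bound by STAT5, the factor activated by prolactin, or to TGATGNAA, a core of amino acid response elements, searched on both strands.
Slc38a10: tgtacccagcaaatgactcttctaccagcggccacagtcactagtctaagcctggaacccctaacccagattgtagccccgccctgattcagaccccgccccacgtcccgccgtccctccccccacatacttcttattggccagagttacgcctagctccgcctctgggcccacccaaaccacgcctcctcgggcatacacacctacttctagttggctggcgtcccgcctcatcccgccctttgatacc
Slc38a4: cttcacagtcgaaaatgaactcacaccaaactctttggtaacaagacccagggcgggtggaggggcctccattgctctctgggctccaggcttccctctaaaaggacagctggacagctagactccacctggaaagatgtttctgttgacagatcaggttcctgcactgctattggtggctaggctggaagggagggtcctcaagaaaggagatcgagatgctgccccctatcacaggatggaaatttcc
Slc38a5: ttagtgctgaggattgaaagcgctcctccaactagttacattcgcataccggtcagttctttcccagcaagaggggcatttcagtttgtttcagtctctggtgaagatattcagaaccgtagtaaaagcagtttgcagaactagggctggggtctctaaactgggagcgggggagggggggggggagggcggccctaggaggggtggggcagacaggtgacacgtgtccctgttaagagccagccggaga

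None of these 3 windows held either motif, which says only that the letters are not in these bases. They held 13, 3 and 8 CpG dinucleotides, where the median of all 32851 windows was 6. Slc38a4 has 3 annotated start sites with a window, of which the one farthest upstream is shown, and the other two held 5 CpG each. The window of Slc38a6, which also fell, is not printed and held 21 CpG, more than that of Slc38a10. TTCNNNGAA was found in 4 of 40 member windows, where 7.02% of all windows held it: those of Slc1a3, Slc38a9, Slc7a1 and Slc7a11. TGATGNAA was found in 3 of 40, where 3.45% of all held it, which belong to Slc7a7 and Slc7a11. Of these 5 genes Slc38a9, Slc7a1 and Slc7a7 were tested and not called, and Slc1a3 and Slc7a11 were too dim to be tested.

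The cationic amino acid carriers, which move arginine and lysine, went different ways. Slc7a2, known in mouse alpha cells among other places, had 5631, 5365 and 4768 in non-pregnant and 4228, 3808 and 3811 in pregnant islets. All pregnant arrays were below all others. The mean fell from 5255 ± 442 to 3949 ± 241, to 0.752 of its level. The log2 difference was -0.41 ± 0.07 (limma adjusted p = 0.0047). A further 2 of its 4 tested probe sets were called lower (-0.51 ± 0.10 and -0.46 ± 0.13), and the fourth had -0.51 ± 0.18. The fall was called with any 1 array left out, but not without the variance trend (adjusted p = 0.10).

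Slc7a1, the widespread cationic carrier, had 1710, 2093 and 1703 in non-pregnant and 2103, 2105 and 2345 in pregnant islets. The groups did not overlap, by a narrow margin, but the gene did not pass at 0.25 ± 0.09 (95% interval 0.05 to 0.45, limma adjusted p = 0.11). It was called after median centring of the arrays (0.33, adjusted p = 0.042) and without non-pregnant replicate 2 (0.35, adjusted p = 0.028). Its second probe set had 0.16 ± 0.11. Slc7a3 was dim (-0.20 ± 0.25), and Slc7a4, a relative with little known transport activity, had -0.02 ± 0.09. Dimmer probe sets of Slc7a4 had 0.20 ± 0.10, with the pregnant arrays above without overlap, and 0.09 ± 0.23, and neither was called.

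For Slc7a14, a lysosomal relative of the cationic carriers, the 2 probe sets gave different results. The brighter had 6313, 6254 and 6722 in non-pregnant and 6675, 7496 and 6460 in pregnant islets and was not called (0.09 ± 0.07, limma adjusted p = 0.45). The dimmer had 1185, 1276 and 1220 against 1032, 904.6 and 754.4 and was called lower (-0.46 ± 0.11, adjusted p = 0.022). The difference between the probe sets was not tested, so no direction is given for this gene.

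**Figure D3:**
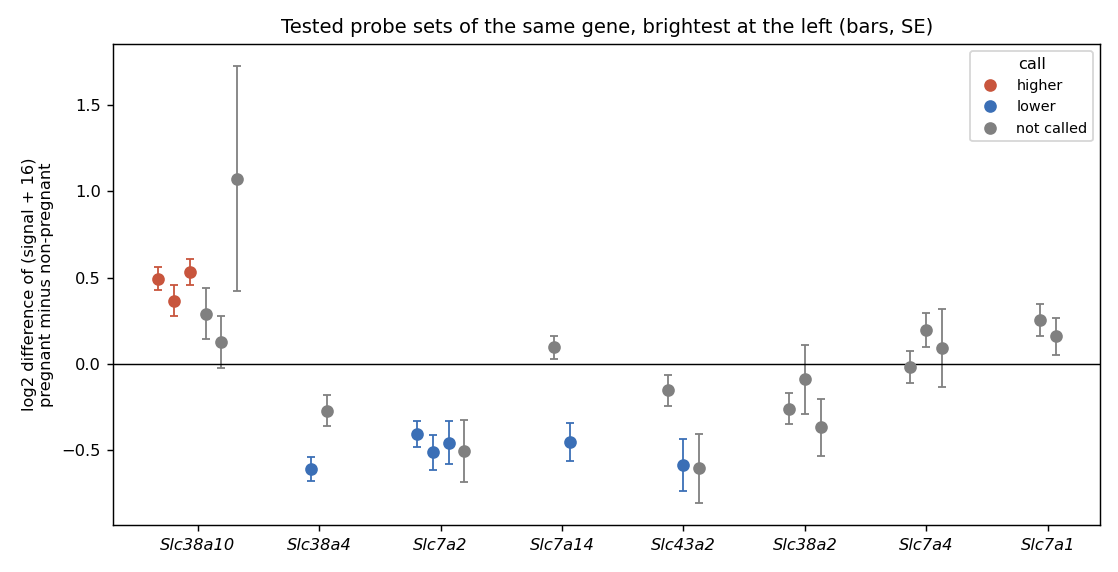
Log2 difference of signal + 16, pregnant minus non-pregnant (y axis), for each tested probe set of 8 amino acid transporter genes (x axis), ordered within a gene from the brightest at the left; bars are SE from limma, 3 arrays per group. The 4 probe sets of Slc7a2 lie between -0.51 and -0.41, whereas the 2 of Slc7a14 lie at 0.09 and -0.46.

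Tryptophan enters cells mainly through large neutral amino acid carriers such as Slc7a5 (LAT1) and Slc7a8 (LAT2), which pair with the heavy chain Slc3a2 (4F2hc). The large neutral carriers Slc43a1 and Slc43a2 (LAT3 and LAT4) work alone and prefer leucine, isoleucine, methionine and phenylalanine. The light chains Slc7a6 and Slc7a7 also pair with Slc3a2 and exchange cationic for large neutral amino acids. Of these 7 genes 6 could be tested, and limma called 0 higher and 0 lower, with 0 also at an unadjusted p under 0.05. Over all genes 6.1% were called higher and 5.79% lower, so 0 calls among 6 genes lie near those shares.

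Slc7a5 had signals of 1480, 1733 and 1332 in non-pregnant and 1501, 1483 and 1556 in pregnant islets. The pregnant values lay inside the range of the others. The means were 1515 ± 203 and 1513 ± 38.4, and the log2 difference was 0.01 ± 0.10, with a 95% interval of -0.20 to 0.21 (limma adjusted p = 0.98). Its partner Slc3a2 had 4317, 4083 and 4173 in non-pregnant and 4392, 4319 and 4170 in pregnant islets. The groups overlapped, and the interval around 0.03 ± 0.06 was narrow, from -0.09 to 0.16.

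Slc7a8 had 1015, 1126 and 983.4 in non-pregnant and 1090, 1036 and 1063 in pregnant islets, again overlapping. Its log2 difference was 0.03 ± 0.09, with an interval of -0.16 to 0.22. These intervals leave out changes of 2-fold for Slc7a5, Slc3a2 and Slc7a8, but not small changes in either direction. Slc7a6 had -0.07 ± 0.13 in its brighter and 0.20 ± 0.11 in its other probe set.

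Slc43a2 had 1877, 2056 and 2335 in non-pregnant and 1821, 1785 and 2007 in pregnant islets in its brightest probe set, with a log2 difference of -0.15 ± 0.09 (interval -0.35 to 0.04, limma adjusted p = 0.34). A dimmer probe set had 488.3, 622.9 and 430.7 against 298.6, 326.9 and 375.6 without overlap and was called lower (-0.59 ± 0.15, adjusted p = 0.029). The third had -0.61 ± 0.20 and was not called, and the average of the 3 probe sets had -0.45 (adjusted p = 0.013). The call for this gene thus rests on the choice of probe set. Slc43a1 was too dim to be tested, with 67.9, 56.0 and 5.0 in non-pregnant and 45.2, 33.8 and 38.4 in pregnant islets.

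Slc7a7, which is strong in macrophages, was also dim. It had 58.2, 69.2 and 65.8 in non-pregnant and 75.9, 107.5 and 128.9 in pregnant islets. Although the pregnant arrays were all higher, the log2 difference of 0.56 ± 0.27 was not called (limma adjusted p = 0.25). Among the macrophage and lymphocyte markers 1 of 13 tested was called higher (7.69%, against 6.1% of all genes) and 0 lower. It was C1qa, which rose by 1.06, and the median log2 difference of the 13 was -0.17. The summed signal of 16 markers was between 8301 and 8584 without pregnancy and between 11600 and 12607 in pregnancy. C1qa alone carried that rise: without it, a sum formed after the data were seen, the other 15 markers came to between 4773 and 5180 without pregnancy and between 4503 and 4975 in pregnancy, which overlap. Of the 13 tested markers, 2 lay above without overlap on the pregnant arrays, where 13.9% of all genes did. Another 3 lay below without overlap, where 17.9% of all genes did. These 3 were Csf1r, Tyrobp and C1qb, which were not called (limma adjusted p = 0.068, 0.098 and 0.38). The part of these cells in the Slc7a7 values was not tested.

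In the same islets Tph1 and Tph2, which hydroxylate tryptophan in the first step of serotonin synthesis, had log2 differences of 6.17 ± 0.21 and 3.92 ± 0.22 (limma adjusted p = 7.1e-09 and 7.9e-07). Of 7 tested genes of tryptophan use and serotonin synthesis, 3 were called higher (42.9%, against 6.1% of all genes). The list includes Tph1 and Tph2 and was chosen with earlier results of these data known, so this share adds nothing to their rises. The third was the decarboxylase Ddc (0.36 ± 0.05). Against 5.79% of all genes, 0 of the list were called lower (0 also at an unadjusted p under 0.05). Among its genes too dim to be tested, Ido1 and Afmid lay lower in pregnancy without overlap, and Ido2, Kmo, Kynu and Haao overlapped. Slc16a10 (TAT1), a carrier of aromatic amino acids outside the member families that is named here after its values were seen, had 2807, 2436 and 2911 in non-pregnant and 2215, 2327 and 2318 in pregnant islets. Its groups did not overlap, but at -0.24 ± 0.08 it was not called (limma adjusted p = 0.074). Slc36a4, a member of the Slc36 family with high affinity for proline and tryptophan, had 1301, 1202 and 1383 against 970.2, 1122 and 1312. With overlapping groups its difference was -0.20 ± 0.11 (adjusted p = 0.32).

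**Figure D4:**
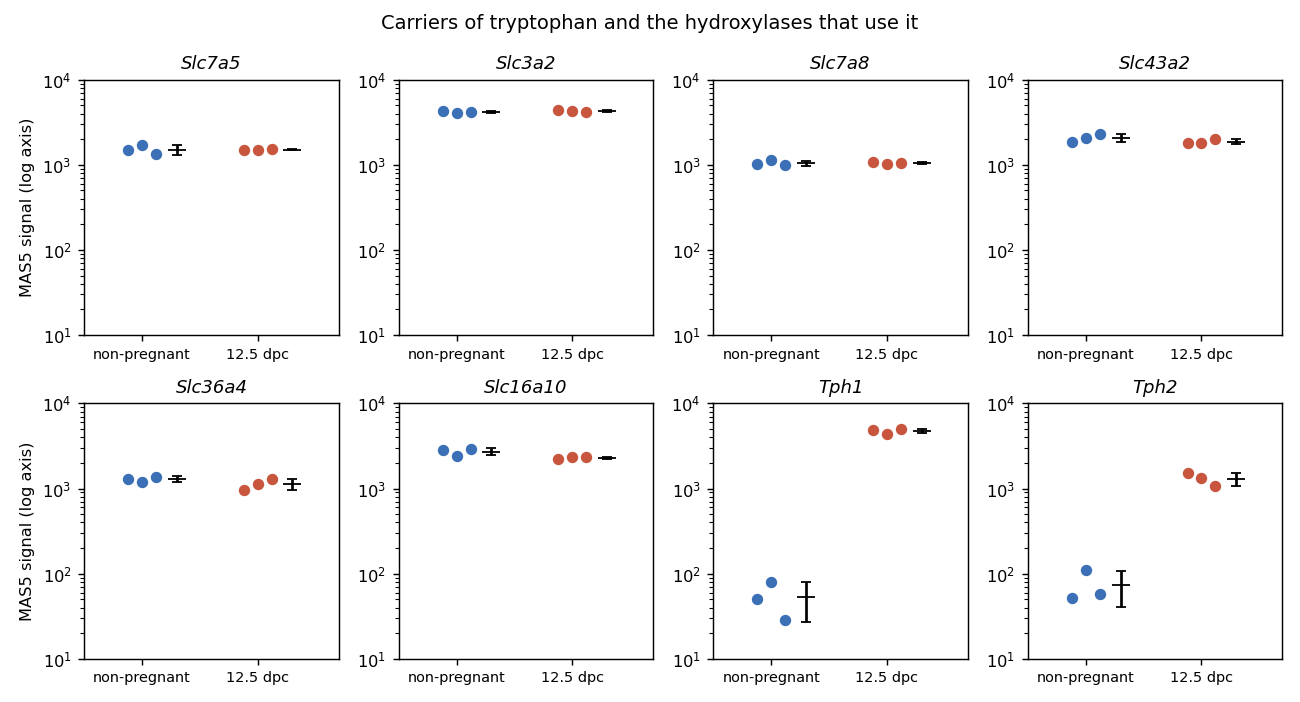
MAS5 signal on a log axis (y axis) in non-pregnant and 12.5 dpc islets for Slc16a10, for 5 member genes linked to uptake of tryptophan or other large neutral amino acids, and for the hydroxylases Tph1 and Tph2. Points are arrays and black marks are the mean ± SD of 3; the groups of Slc7a5, Slc3a2, Slc7a8, Slc43a2 and Slc36a4 overlap, while Tph1 goes from 53.2 to 4749 and Tph2 from 73.5 to 1302.

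The remaining tested Slc36 carriers were not called. Slc36a1 (PAT1), which exports small amino acids from lysosomes, had 816.4, 831.7 and 696.4 in non-pregnant and 573.4, 694.8 and 664.9 in pregnant islets. The highest pregnant value was just under the lowest other one, and the log2 difference was -0.27 ± 0.11 (limma adjusted p = 0.16). Slc36a3 was dim and fell short of the call at -0.997 ± 0.373 (adjusted p = 0.13), which was the lowest value of the 28 genes but had a 95% interval of -1.81 to -0.18. All 3 tested members of this family had negative differences, except that Slc36a4 had 0.10 in the fit with the acinar covariate. Limma called 0 of the 3 (0 higher and 2 lower at an unadjusted p under 0.05), where it called 6.1% of all genes higher and 5.79% lower.

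Slc43a3 is a relative of the leucine carriers that is known to move purine nucleobases. It had 319.2, 299.4 and 340.6 in non-pregnant and 205.5, 209.1 and 227.7 in pregnant islets. The groups were clearly apart. The mean fell from 319.7 ± 20.6 to 214.1 ± 11.9, a log2 difference of -0.54 ± 0.14 (limma adjusted p = 0.030). With 1 array left out the adjusted p was 0.052 to 0.10, so the call needs all 6 arrays.

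Among the Slc1 genes 3 of 7 could be tested, and limma called 0 (0 also at an unadjusted p under 0.05). Of all genes it called 6.1% higher and 5.79% lower. The exchanger of alanine, serine and cysteine Slc1a4 had a log2 difference of -0.11 ± 0.16, and the glutamine exchanger Slc1a5 had -0.15 ± 0.23. The glutamate carrier Slc1a1 had 0.23 ± 0.27. Their 95% intervals reached from -0.66 at the lowest to 0.83 at the highest, so these data leave room for changes of less than 2-fold in either direction. The heavy chain Slc3a1, which pairs with Slc7a9 in the carrier of cystine, had -0.07 ± 0.26.

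The 12 members without a tested probe set were the glutamate carriers Slc1a2, Slc1a3, Slc1a6 and Slc1a7, the proton-coupled Slc36a2, the leucine carrier Slc43a1, and Slc7a9, Slc7a10, Slc7a11, Slc7a12, Slc7a13 and Slc7a15 of the Slc7 family. Their 23 probe sets had signals of 1.1 to 77.7 on the 6 arrays. For Slc7a11, the light chain that imports cystine, the brightest probe set had 41.5, 56.6 and 25.7 in non-pregnant and 53.9, 41.9 and 55.3 in pregnant islets. These values overlapped and were near the range of the bacterial control, so no change could be read from them.

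Slc38a5 and Slc7a2 are known from alpha cells. Of 7 alpha cell markers other than Slc38a5, limma called 2 lower (28.6%, against 5.79% of all genes) and 0 higher. At an unadjusted p under 0.05 these were 5 and 0, and the median log2 difference of the 7 was -0.35. Their summed signal was between 97835 and 102487 without pregnancy and between 91470 and 95940 in pregnancy, and none was at 0. Most of that sum came from Gcg and Ttr, with non-pregnant means of 48010 and 48869. The highest signal on any array was 64109, and whether signals this bright still follow the amount of RNA was not tested. The 2 markers called lower were the less bright Dpp10 (-0.52 ± 0.10) and Irx1 (-0.40 ± 0.11). The glucagon gene Gcg overlapped between the groups and was not called (-0.04 ± 0.05, limma adjusted p = 0.66). Ttr had -0.11 ± 0.04 and was not called (adjusted p = 0.14). The part of alpha cells in the falls of Slc38a5 and Slc7a2 was not tested.

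Acinar markers, from the surrounding exocrine tissue, were lower too: 18 of 22 tested fell (81.8%, against 5.79% of all genes) and 1 rose (4.55%, against 6.1%). Their summed signal was between 214851 and 407604 without pregnancy and between 127336 and 206267 in pregnancy. In a fit with acinar marker level as a covariate, Slc38a4 had -0.70 (limma adjusted p = 0.015), Slc7a2 -0.50 (0.074), Slc38a10 0.50 (0.063) and Slc43a3 -0.38 (0.55). Without the covariate these differences were -0.61, -0.41, 0.49 and -0.54. Slc38a4 was the 1 member called in that fit. The covariate lowers the power by construction, since acinar marker level was lower on every pregnant array than on every non-pregnant one. The part of acinar tissue in the values of the transporters thus cannot be told apart from pregnancy here. Endothelial markers summed to 11500 to 12060 without pregnancy and 10189 to 11351 in pregnancy, and 1 of 13 fell (7.69%, against 5.79% of all genes). Stellate cell and fibroblast markers summed to 20862 to 21968 without pregnancy and 16776 to 20608 in pregnancy. Of these, 3 of 15 fell (20%, against 5.79% of all genes) and 1 rose (6.67%, against 6.1%). Duct markers summed to 37521 to 40516 without pregnancy and 39406 to 41731 in pregnancy. Of 8 tested, 2 rose and 2 fell (25% each, against 6.1% and 5.79% of all genes). The part of these cell types in the values of the transporters was not tested. Beta cell markers, which define the main islet cell type, were bright in both groups, with a median of 0.02. Of 11 tested, 1 was called higher (9.09%, against 6.1% of all genes) and 2 lower (18.2%, against 5.79%).

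Amino acid shortage activates the transcription factor ATF4, which is known to induce Slc7a11, Slc7a5, Slc3a2 and Slc38a2 along with enzymes of amino acid synthesis. Of the first of these no change could be read, and the other 3 were not called. In a list of 25 tested genes of this response, 5 rose (20%, against 6.1% of all genes) and 3 fell (12%, against 5.79%), with a median log2 difference of 0.01. The cysteine-synthesis enzyme Cth rose by 1.10 ± 0.22, the stress protein Nupr1 by 0.91 ± 0.06 and Aldh18a1, an enzyme of proline synthesis, by 0.52 ± 0.06, while the mTORC1 inhibitor Ddit4 had -0.53 ± 0.06 and was called lower (limma adjusted p = 0.0085, 3.6e-06, 2.7e-04 and 2.2e-04). Atf4 itself, named here after its values were seen, had 0.05 ± 0.06.

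Of 30 tested genes of amino acid sensing by mTORC1, 3 rose (10%, against 6.1% of all genes) and 4 fell (13.3%, against 5.79%), with a median of 0.02. The arginine sensor relative Castor2 (-0.52 ± 0.10) and the folliculin partner Fnip1 (-0.32 ± 0.07) fell, and Lamtor2, part of the lysosomal anchor (0.31 ± 0.06), and Sec13 (0.43 ± 0.09) rose, with limma adjusted p between 0.0052 and 0.0099. When probe sets of a gene were averaged, 0 of the list were lower.

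A list of carriers of amino acids and peptides outside the member families, which also counts the carrier partner collectrin, had 19 tested genes. Limma called 4 lower, a share of 21.1% against 5.79% of all genes, and 0 higher. At an unadjusted p under 0.05 these were 7 and 0, and the median was -0.12. Slc6a6, the taurine carrier, had 4717, 5247 and 5012 in non-pregnant and 3984, 4091 and 3916 in pregnant islets (-0.32 ± 0.06, limma adjusted p = 0.0068). Slc6a19, a carrier of neutral amino acids, fell by 0.76 ± 0.19, its partner collectrin, Cltrn, by 0.19 ± 0.05, and the peptide carrier Slc15a2 by 1.01 ± 0.26. After median centring 0 of the list were called.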

How the data were processed

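Pancreatic islet RNA was hybridised to 6 Affymetrix arrays, 3 per group. The deposited values are linear intensities, MAS5 signals per the submitters' processing notes; no source used here gives the MAS5 version. Of 45101 probe sets, 64 AFFX controls were left out. Signals were taken as log2(signal + 16) without further normalization, and probe sets in the top 60% by mean over all arrays were tested (27022, a signal of about 50.5). Symbols came from the platform annotation, which names 34958 probe sets with 1 gene, 932 with several and 9211 with none; all 86 member probe sets matched RefSeq genes. The 2 groups entered a linear model in limma 3.58.1 (R 4.3.3; eBayes with a variance trend, 2-sided, 4 residual degrees of freedom), and the code was tested on simulated data. Errors are limma's SE or the SD, and intervals are 95%. The rule for named genes took every called member, the large neutral amino acid carriers with Slc3a2, and members with another called probe set. It also took the 5 brightest members, Tph1 and Tph2, and at most 4 called genes of each other list by smallest p. Further members are named to account for all 40. The members, lists, motifs and alternatives were chosen with earlier results of these data known. Promoter sequences are from RefSeq (GRCm38.p6), and figures were drawn with matplotlib 3.10.9. Alternatives were pseudocounts of 1 and 64, quantile normalization, median centring, a top 40% filter and none, robust eBayes and eBayes without trend, the replicate number as a block, an acinar covariate, averaged probe sets and each array left out. No other per-sample values were used.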

Additional observations from a re-analysis of the deposited data

How the results depend on the processing

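Of the 6 called members, Slc38a4 was called in all 17 alternatives, Slc38a10 and Slc7a2 in 15, Slc38a6 in 7, Slc43a3 in 6 and Slc38a5 in 5; each kept its sign in all 17. No member was called in the opposite direction. Of the settings that follow, counts over all genes are given above for median centring only. A change in the number of calls is therefore not read as particular to the transporters or lists. The number of member genes that rose, 1 as reported, was 2 with median centring, 0 without the variance trend, 0 with the acinar covariate and 1 to 2 with an array left out. The number that fell, 5 as reported, was 2 with quantile normalization, 2 with median centring, 2 with no filter (40 genes tested), 2 without the variance trend, 1 with the acinar covariate and 2 to 4 with an array left out. Their median was -0.028 with median centring, -0.16 with probe sets averaged and -0.18 to -0.064 with an array left out. By probe set, the 3 higher became 0 without the variance trend and 2 to 3 with an array left out, and the 9 lower became 5 with quantile normalization, 4 with median centring, 4 with no filter, 2 without the trend, 1 with the acinar covariate and 3 to 8 with an array left out. The starvation response had 3 higher and 1 lower without the trend, 2 and 1 with the acinar covariate, 1 lower with median centring, and 3 to 5 higher and 1 to 3 lower with an array left out. The mTORC1 list had 0 higher and 0 lower without the trend, 1 and 0 with the acinar covariate, 1 lower with median centring, 0 lower with probe sets averaged, and 1 to 4 higher and 2 to 4 lower with an array left out. Of the other carriers 2 fell with quantile normalization, 1 with no filter, 0 with median centring, without the trend or with the acinar covariate, and 1 to 4 with an array left out. The cause was not tested, except that fewer arrays, an added covariate or block, or more features tested leave less power by construction. Same-numbered arrays deviated from their group means with correlations of -0.07 to 0.03, so the replicate numbers were not taken as pairs; with the replicate block 2 member genes and 5 member probe sets were lower, the other counts stayed within 1.5 times. Signals near the bacterial control limit what can be read for the 12 untested members.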

Other observations

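Of the 86 member probe sets 52 were tested. Among the others, which were dim, the groups separated only in a probe set of Slc1a1 and in another of Slc38a1. Of all tested genes, which are brighter, 13.9% lay above and 17.9% below without overlap. No such share was formed for untested probe sets. The glutamate carrier Slc1a1 had 5.2, 4.8 and 12.5 in non-pregnant and 26.4, 38.9 and 37.6 in pregnant islets in its dimmest probe set, largely within the 1.1 to 32.3 of the bacterial control, while its brightest probe set overlapped. Slc38a1 had 68.8, 60.5 and 48.2 against 18.1, 28.4 and 34.0 in its dimmer probe set, lower in pregnancy, whereas its tested probe set had a log2 difference of 0.28. These were picked after their values were seen and were not tested.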
